A study of Mus musculus with 16 samples.

Results

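The step from the pre-pro-B to the pro-B stage was followed in adult bone marrow by comparing fraction B/C (Fr.B/C) with fraction A (Fr.A). All arrays that the labels assign to these fractions in bone marrow were used, 8 of the 16 in the series, 4 per fraction. The mice were adult female BALB/c animals with no genetic change or treatment named in the labels. Marrow flushed from the femur and tibia of 16 mice was pooled for each of 4 sorts, and each sort gave 1 sample of either fraction. Values are therefore means over pooled animals. The remaining 8 arrays carry the same fractions from BALB/c fetal liver at gestation day 16, a litter of on average 8 embryos per sort, and served only to ask whether the step differs there. From every sample 100 ng of total RNA was amplified and hybridised with a common reference to a 2-colour Agilent whole mouse genome array. The reference was RNA from R1, RS2, J558 and EL4 cells together with DN3 and P388d cells, 6 lines in all, so each value is a log2 ratio of sample to reference. Such ratios compare samples for 1 gene and do not rank genes by abundance. In bulk samples, fewer cells of a type and less RNA per cell cannot be told apart.

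B lymphocytes arise in the marrow from multipotent progenitors that first switch on a B-lineage transcription programme and then assemble their immunoglobulin heavy-chain gene by V(D)J recombination. In the Hardy scheme, Fr.A holds the earliest cells of this path, a mixed population that is not fully committed, and Fr.B and Fr.C hold pro-B cells that rearrange the heavy chain. A completed heavy chain pairs with the surrogate light chain, made of the VpreB and lambda5 proteins, and with the signalling chains Cd79a and Cd79b, forming the pre-B cell receptor (pre-BCR) that tests the rearrangement. Interleukin 7 from stromal cells supports survival and division at these stages.

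On the 8 arrays the sample channel had a median intensity of 76.1 to 162. Between 55.4% and 68.3% of probes per array stood well above background, and the share that was saturated ran from 0.221% to 0.381%. Precision is limited by having 4 arrays per fraction. The fractions separated on the first principal component, which held 66% of the variance. The second component, with 17.1%, separated arrays 1 and 2 from arrays 3 and 4 in both fractions. Within a fraction, arrays 1 and 2, or 3 and 4, correlated at r = 0.966 to 0.975 across genes, against 0.908 to 0.943 between these sets and 0.755 to 0.813 between fractions. Arrays 1 and 2 were also scanned in other sessions than arrays 3 and 4. The arrays of each set also carried opposite dyes, with the sample in Cy5 on arrays 1 and 3 and in Cy3 on arrays 2 and 4. The labels speak of 4 sorts and do not say which arrays came from which, and whether the arrays of a set hold the same RNA with the dyes swapped was not tested. If they did, n would be 2 pairs and the errors and p-values below, which take n = 4, would be too small. The comparison was therefore repeated with each set averaged, which leaves 2 pairs.

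**Figure D1:**
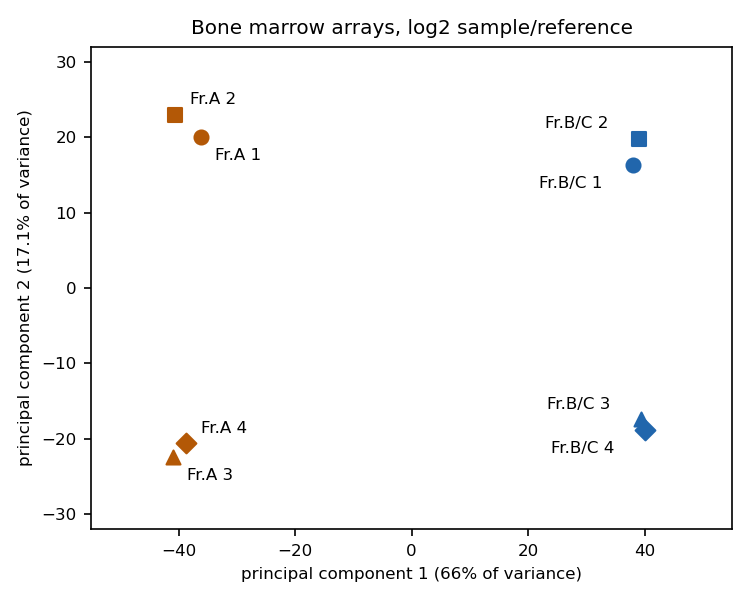
First and second principal components of the log2 sample/reference values of the 8 bone marrow arrays, with colour for the fraction and a symbol for the array number. The fractions lie at opposite ends of the first axis (66% of the variance), and arrays 1 and 2 lie apart from arrays 3 and 4 on the second (17.1%).

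Of 21675 genes or unnamed transcripts that could be tested, 9726 (44.9%) passed an adjusted p of 0.05 in the paired limma fit with Benjamini-Hochberg adjustment. The transcripts that rose from Fr.A to Fr.B/C numbered 4272 (19.7%), and 5454 (25.2%) fell. Changes of at least 2-fold were fewer, with 432 higher (1.99%) and 907 lower (4.18%). In 6514 (30.1%) the 4 values of one fraction lay wholly above those of the other. The median log2 fold change over all tested transcripts was -0.04. With each set of arrays averaged, 6017 passed, and 6008 of these were among the 9726. All fold changes below are log2 values of Fr.B/C minus Fr.A with their standard error (SE, n = 4 pairs), and adjusted p-values come from the same limma fit unless another is named.

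Surrogate light chain and pre-BCR genes rose together. All 6 tested members of a list of 7 were higher in Fr.B/C (19.7% of all transcripts were), and all 6 were still higher with the sets averaged. The probes used for 3 of them were saturated in Fr.B/C and give only a lower bound, while the other 3 rose by 1.1 to 2.59 (log2). No probe carried the name Igll1, which encodes lambda5. The promoters of the list are shown because its measured genes moved together. They are the 250 bases before the annotated start in RefSeq (GRCm38.p6), written 5′ to 3′ on the gene's strand, and 5 of the 7 members had an entry. Capitals mark matches on either strand to the E-box motifs CAGGTG and CAGCTG, the octamer ATGCAAAT or the motif CCCNNGGG.
Vpreb1 (chr16:16869256-16869505, minus strand): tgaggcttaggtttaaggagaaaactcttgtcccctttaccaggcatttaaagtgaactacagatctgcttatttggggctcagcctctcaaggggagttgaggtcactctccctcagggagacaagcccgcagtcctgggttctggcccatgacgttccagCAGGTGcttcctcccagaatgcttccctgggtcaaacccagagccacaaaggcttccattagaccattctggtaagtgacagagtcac
Vpreb2 (chr16:17980315-17980564, plus strand): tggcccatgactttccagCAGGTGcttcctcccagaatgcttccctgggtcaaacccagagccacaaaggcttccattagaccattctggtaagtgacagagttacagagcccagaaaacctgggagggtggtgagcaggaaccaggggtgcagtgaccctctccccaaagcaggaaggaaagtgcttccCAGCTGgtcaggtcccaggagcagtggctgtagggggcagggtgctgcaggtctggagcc
Vpreb3 (chr10:75948050-75948299, plus strand): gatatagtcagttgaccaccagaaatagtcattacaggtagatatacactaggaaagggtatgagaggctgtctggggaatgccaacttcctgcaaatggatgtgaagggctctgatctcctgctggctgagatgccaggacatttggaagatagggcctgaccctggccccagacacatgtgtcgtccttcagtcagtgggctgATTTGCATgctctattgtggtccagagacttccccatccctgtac
Cd79a (chr7:24897247-24897496, plus strand): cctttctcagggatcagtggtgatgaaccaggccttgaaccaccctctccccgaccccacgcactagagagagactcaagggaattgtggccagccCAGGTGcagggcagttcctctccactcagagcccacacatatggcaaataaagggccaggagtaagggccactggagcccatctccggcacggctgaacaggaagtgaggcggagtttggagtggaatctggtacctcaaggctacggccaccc
Igll1 (chr16:16863986-16864235, minus strand): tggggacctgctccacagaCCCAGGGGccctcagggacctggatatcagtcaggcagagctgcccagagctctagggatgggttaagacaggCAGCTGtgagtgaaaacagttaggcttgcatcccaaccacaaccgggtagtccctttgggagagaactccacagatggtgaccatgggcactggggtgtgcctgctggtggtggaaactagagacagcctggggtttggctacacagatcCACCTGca

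The CAGGTG motif, a sequence bound by E proteins such as Tcf3, began 88 bases before the start of Vpreb1, 232 before Vpreb2 and 154 before Cd79a, and on the opposite strand 8 before Igll1. Vpreb3 had no E-box match of either kind, and no motif searched was found in all 5 windows. CAGGTG occurred in 17.2% of 32817 RefSeq promoter windows of the same length, and CAGCTG, found 60 bases before Vpreb2 and 158 before Igll1, in 13% of them. The octamer, a site of Oct factors, lay 45 bases before Vpreb3 on the opposite strand, and 1.6% of windows held it. The motif CCCNNGGG, a core of the Ebf1 site, was found 231 bases before Igll1 and not in the other 4 windows, and 11.8% of all windows held it. The Vpreb1 and Vpreb2 windows share an identical run of 91 bases that includes the CAGGTG. A match is a description of letters and not a measured site. Vpreb1 and Vpreb2 are near-identical copies, and how far their probes tell them apart was not tested.

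Vpreb2, a surrogate light chain gene, read -0.17, -0.59, -0.11 and -0.24 on Fr.A arrays 1 to 4 and 2.67, 2.43, 2.13 and 2.03 on the Fr.B/C arrays (log2 sample/reference). The fractions did not overlap, and the rise was 2.59 ± 0.14 (adjusted p = 9.06e-06, limma). Cd79a, the signalling chain Ig-alpha, read 0.81, 0.73, 1.28 and 1.14 in Fr.A and 2.97, 2.88, 2.89 and 3.07 in Fr.B/C. Its 4 Fr.B/C values lay close together and well above every Fr.A value, a rise of 1.97 ± 0.10. Ighm, the mu heavy chain, rose by 1.1 ± 0.08 from 0.07 to 0.51 in Fr.A to 1.33 to 1.49 in Fr.B/C.

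The brightest probes of Vpreb1, Vpreb3 and Cd79b were saturated on all 4 Fr.B/C arrays, so their rise is only a lower bound, taken from the sample channel after loess and Aquantile normalization. Vpreb1 was at least 1.67-fold higher (adjusted p = 0.00147, limma), Vpreb3 at least 2.83-fold (0.000259), and Cd79b, the partner of Cd79a, at least 2.57-fold (0.000283). A second Vpreb3 probe, saturated on none of the 8 arrays, gave a rise of 2.69 ± 0.09. Vpreb1 read -0.42 to 0.44 in Fr.A and 0.90 to 2.25 in Fr.B/C, and the higher Fr.B/C values were those of arrays 1 and 3, where the sample carried Cy5. Cd79b lies outside the rule for named genes and was chosen after its values were seen, as were Lef1, Pou2af1, Ikzf1, Mycn and Notch1 below.

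The B-lineage transcription factors changed in both directions. Of 24 tested, 13 rose and 7 fell (19.7% and 25.2% over all transcripts), with a median of 0.58. The share that fell was near that over all transcripts. The lower count was 4 of 24 with scaling between arrays. Spib, an Ets-family factor of B cells and plasmacytoid dendritic cells, moved most, from -1.48 to -1.29 in Fr.A to 1.61 to 2.08 in Fr.B/C, a rise of 3.21 ± 0.08 (adjusted p = 6.5e-07, limma). Lef1, a Wnt pathway factor of pro-B cells, read -1.59, -1.77, -0.25 and -0.54 in Fr.A and 1.5, 1.44, 2.0 and 1.7 in Fr.B/C. Arrays 3 and 4 were the higher ones in both fractions, and the rise was 2.69 ± 0.18. Irf4, which acts downstream of the pre-BCR in light-chain opening, rose by 2.30 ± 0.07, and Pou2af1, a coactivator of Oct factors, by 1.63 ± 0.09.

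Ebf1, the factor that specifies the B lineage, was already above the reference in Fr.A, at 0.56, 0.85, 0.70 and 0.97, and reached 1.62, 1.89, 1.59 and 1.84 in Fr.B/C. Its rise was therefore near 2-fold, 0.97 ± 0.07 (adjusted p = 3.53e-05, limma), smaller than those of Spib, Lef1 or Irf4 on this scale. Pax5, the commitment factor, had probes on the array but none met the filter on dim probes. Nfil3, a factor needed by natural killer (NK) precursors, read 1.45 to 1.62 in Fr.A and -1.29 to -0.91 in Fr.B/C and fell by 2.60. Ikzf1, the lymphoid regulator Ikaros, fell by 1.65 ± 0.25 as read by its 1 kept probe. Its Fr.B/C values spread from -0.05 to 1.07, all below the lowest Fr.A value of 1.82.

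The inhibitors of E proteins moved apart. Id2, which favours NK and dendritic cells, read -0.40, -0.31, -0.40 and -0.36 in Fr.A and -4.25, -4.15, -3.29 and -3.38 in Fr.B/C, a change of -3.40 ± 0.18 (adjusted p = 7.36e-06, limma). Id3 went the other way, from -0.73 to 0.10 up to 2.25 to 3.12, a rise of 2.91 ± 0.07. In their list, which also holds the Notch pathway, 5 of 12 rose and 4 fell (19.7% and 25.2% over all transcripts). With the sets averaged 3 rose. Of the 11 above background in both fractions, 4 rose and 4 fell. Hes1, a Notch target, rose by 1.57 ± 0.06, while the receptor Notch1 fell by 1.28.

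**Figure D2:**
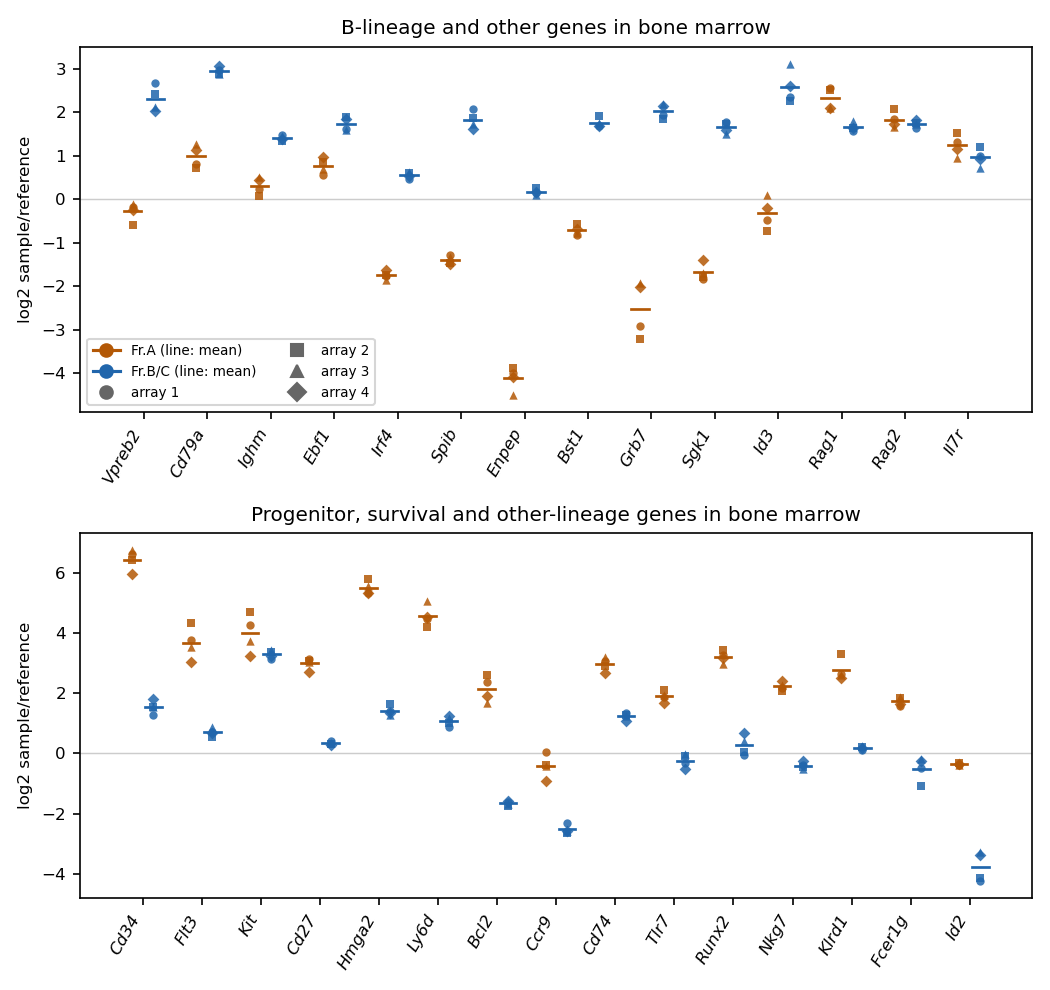
Log2 sample/reference of 29 genes on each bone marrow array, with Fr.A and Fr.B/C in separate columns, a symbol for the array number and a line at the mean of 4. Enpep, Irf4 and Spib lie far apart between fractions and Cd34, Flt3 and Bcl2 do so in the other direction, while the fractions overlap for Rag2, Il7r and Kit.

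Signalling genes of the pre-BCR changed unevenly. Of 21 tested, 11 rose and 5 fell (19.7% and 25.2% over all transcripts), with a median of 0.38. The lower count was 3 with the sets averaged. Prkcb, a protein kinase C, read 0.60, 0.67, 0.80 and 1.05 in Fr.A and 2.46, 2.43, 2.38 and 2.52 in Fr.B/C. The fractions did not overlap, and the rise was 1.67 ± 0.08 (adjusted p = 6.61e-06, limma). Rasgrp3, an activator of Ras, rose by 1.61 ± 0.11, and Pik3ap1, an adaptor to PI3-kinase, by 1.32 ± 0.10. The second probes of Prkcb and Pik3ap1 gave only 0.44 and 0.28.

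The recombination genes did not move as a block. Of 14 tested, 7 rose and 4 passed in the other direction (19.7% and 25.2% over all transcripts), among them the saturated Dntt. With the sets averaged the lower count was 1. Lig4, the ligase that seals the joined ends, rose by 1.71 ± 0.08, from -1.63 to -1.08 in Fr.A to -0.08 to 0.72 in Fr.B/C. Xrcc6, the Ku70 end-binding protein, rose by 0.87 ± 0.09, and Hmgb1, a cofactor of the recombinase, by 0.74 ± 0.08. The recombinase itself did not rise. Rag1 read 2.56, 2.51, 2.09 and 2.11 in Fr.A and 1.57, 1.65, 1.80 and 1.64 in Fr.B/C. It was lower in every pair, with the wider gaps on arrays 1 and 2, and the fit gave -0.65 ± 0.12 (adjusted p = 0.00367, limma).

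Rag2, the partner of Rag1, read 1.66 to 2.08 in Fr.A and 1.65 to 1.82 in Fr.B/C. These ranges overlapped, and the difference of -0.09 ± 0.09 did not pass (adjusted p = 0.477, limma). Rag1 did not pass with scaling between arrays (0.272). Dntt, the enzyme that adds N nucleotides, was saturated on all 8 arrays, so no fold is given.

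The genes of interleukin 7 signalling gave 3 higher and 7 lower of 14 tested (19.7% and 25.2% over all transcripts), with a median of -0.14. The share that rose was near that over all transcripts, and the lower count was 3 with the sets averaged. Il7r, the receptor's alpha chain, read 1.31, 1.52, 0.96 and 1.16 in Fr.A and 1.00, 1.21, 0.73 and 0.92 in Fr.B/C. It was lower in all 4 pairs although the ranges overlapped, with a change of -0.27 ± 0.06 (adjusted p = 0.0107, limma). The call was lost without the replicate block on these 8 arrays (adjusted p = 0.155, limma), and also in fits that keep the pairs, with median centring (-0.11, 0.393), scaling between arrays (-0.19, 0.399), the sets averaged (0.158) or the mean of its 2 probes (-0.18, 0.0518). Il2rg, the common gamma chain, rose by 0.48 ± 0.09. Among feedback inhibitors of the pathway, Socs2 rose by 0.82 ± 0.06 and Socs1 fell by 0.99.

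The surface genes by which these fractions are usually recognised gave a check of the labels. The gates used are not given in the sources used here, and a gene that served as a gate is no finding. Of 10 such genes tested, 6 were higher and 4 lower in Fr.B/C (1 lower with scaling between arrays). Over all transcripts the shares were 19.7% and 25.2%. Among the 4 lower genes, 1 was read by a probe saturated on 3 Fr.A arrays (-0.54), and its other probe gave 0.61. Enpep, the BP-1 antigen of Fr.C, read -3.99, -3.88, -4.50 and -4.09 in Fr.A and 0.15, 0.27, 0.10 and 0.18 in Fr.B/C. Its rise of 4.29 ± 0.09 (adjusted p = 3.39e-07, limma) was among the largest on the arrays. Cd24a, the heat-stable antigen, rose by 0.83 ± 0.07, and Bst1, also called BP-3, by 2.47 ± 0.07.

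Spn and Ptprc, whose proteins both fractions carry on their surface, changed less. Spn, the CD43 protein, read 0.62 to 0.89 in Fr.A and 0.92 to 1.40 in Fr.B/C (0.38 ± 0.08, adjusted p = 0.00818, limma), and Ptprc, whose B220 form marks both fractions, fell by 0.39 with overlapping ranges. A second Spn probe gave 0.05 and a further Ptprc probe 0.08, and Ptprc did not pass without the replicate block (0.161) or with the sets averaged (0.0535). Nor did Spn with the sets averaged (0.0636). Kit, the stem cell factor receptor, read 4.28, 4.69, 3.73 and 3.24 in Fr.A and 3.15, 3.37, 3.42 and 3.23 in Fr.B/C. Its change of -0.69 ± 0.21 came mostly from arrays 1 and 2 and did not pass without replicate 1 (0.0948) or replicate 2 (0.100), or with scaling between arrays (-0.33, 0.695). Ly6d, a marker of B-biased lymphoid progenitors, fell from 4.21 to 5.06 in Fr.A to 0.89 to 1.25 in Fr.B/C, a change of -3.49 ± 0.12.

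Surface genes of later B cells were mixed, with 7 of 16 higher and 5 lower (19.7% and 25.2% over all transcripts). Of the 15 above background in both fractions, 7 were higher and 4 lower. Ms4a1, the CD20 protein, rose by 1.51 ± 0.09, and Fcmr, the Fc receptor for IgM, by 1.95 ± 0.08. Ly86, the MD-1 partner of a Toll-like receptor homologue, fell by 2.20, from 2.28 to 2.86 in Fr.A to 0.01 to 0.70 in Fr.B/C. Immunoglobulin and plasma cell genes gave 5 higher and 3 lower of 8 tested (3 and 1 with scaling between arrays), or 5 and 2 of the 7 above background in both fractions. Mzb1, a chaperone of antibody secretion, rose by 1.93 ± 0.08, Slamf7, a SLAM family receptor, by 3.73 ± 0.08, and Sdc1, the syndecan that marks plasma cells, fell by 2.23.

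Among the 12 genes that rose most, B-cell genes stood beside genes of other roles. Grb7, an adaptor of receptor tyrosine kinases, had the largest rise, 4.55 ± 0.17 (adjusted p = 1.75e-06, limma). It read -2.92, -3.21, -1.92 and -2.02 in Fr.A and 1.93, 1.85, 2.19 and 2.14 in Fr.B/C, so the sets of arrays differed by about 1 unit within Fr.A alone. Fcrla, an Fc receptor-like protein of B cells, rose by 3.52 ± 0.06, and Sit1, a transmembrane adaptor of lymphocytes, by 3.44 ± 0.09. Sgk1, a kinase downstream of PI3-kinase, rose by 3.33 ± 0.11, and Lgr5, a receptor for R-spondins, by 3.41 ± 0.07. Lgr5 read -1.54 to -1.43 in Fr.A and 1.81 to 1.98 in Fr.B/C, with little spread in either. Jhy rose by 4.03 on its brighter probe and by 0.98 on the other, Smtnl2 by 3.65, Ttll11, a tubulin-modifying enzyme, by 3.59, and Fbxl12, an F-box protein, by 3.21.

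Mitotic genes rose. Of 32 mitotic genes tested, 31 rose and none fell (19.7% and 25.2% over all transcripts), with a median of 0.63. Between 22 and 31 rose in every alternative tried. The rises were moderate, and only 2 of the 31 reached 2-fold. Ccnb1, a mitotic cyclin, read -1.34, -1.36, -1.52 and -1.62 in Fr.A and -0.42, -0.44, -0.52 and -0.53 in Fr.B/C, 0.98 ± 0.07 higher (adjusted p = 2.88e-05, limma). Ccnb2, its sister cyclin, rose by 1.23 ± 0.09, and Bub1b, a spindle checkpoint kinase, by 0.94 ± 0.07.

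Of 30 replication genes, 17 rose and 5 fell (19.7% and 25.2% over all transcripts), with a median of 0.23. With the sets averaged 10 rose. Rrm2, a subunit of ribonucleotide reductase, rose by 1.18 ± 0.09 and Tyms, thymidylate synthase, by 0.98 ± 0.09. Genes that set entry into the cycle split, with 9 of 18 higher and 8 lower (5 lower with the sets averaged). Ccnd3, the D cyclin of pro-B and pre-B cells, rose by 1.08 ± 0.09, E2f2 by 1.41 ± 0.11 and the inhibitor Cdkn2d by 1.43 ± 0.10. Mycn fell by 2.22 ± 0.19, from 3.31 to 4.34 in Fr.A to 1.24 to 1.63 in Fr.B/C, with -0.06 on a second probe.

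The survival genes Bcl2 and Bcl2l1 moved in opposite directions. Bcl2, the founding survival factor, read 2.37, 2.62, 1.68 and 1.89 in Fr.A and -1.62, -1.74, -1.68 and -1.59 in Fr.B/C. The pro-B values were uniform, and arrays 1 and 2 were the higher ones in Fr.A. The change was -3.80 ± 0.16 on the brighter probe (adjusted p = 2.91e-06, limma) and -1.42 on the other. Bcl2l1, which encodes Bcl-xL, rose by 1.20 ± 0.07, with 0.16 as the lowest of its 3 probes, and Bid, a death-promoting member, fell by 0.66. Over the family 3 of 14 rose and 4 fell, close to the share over all transcripts.

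**Figure D3:**
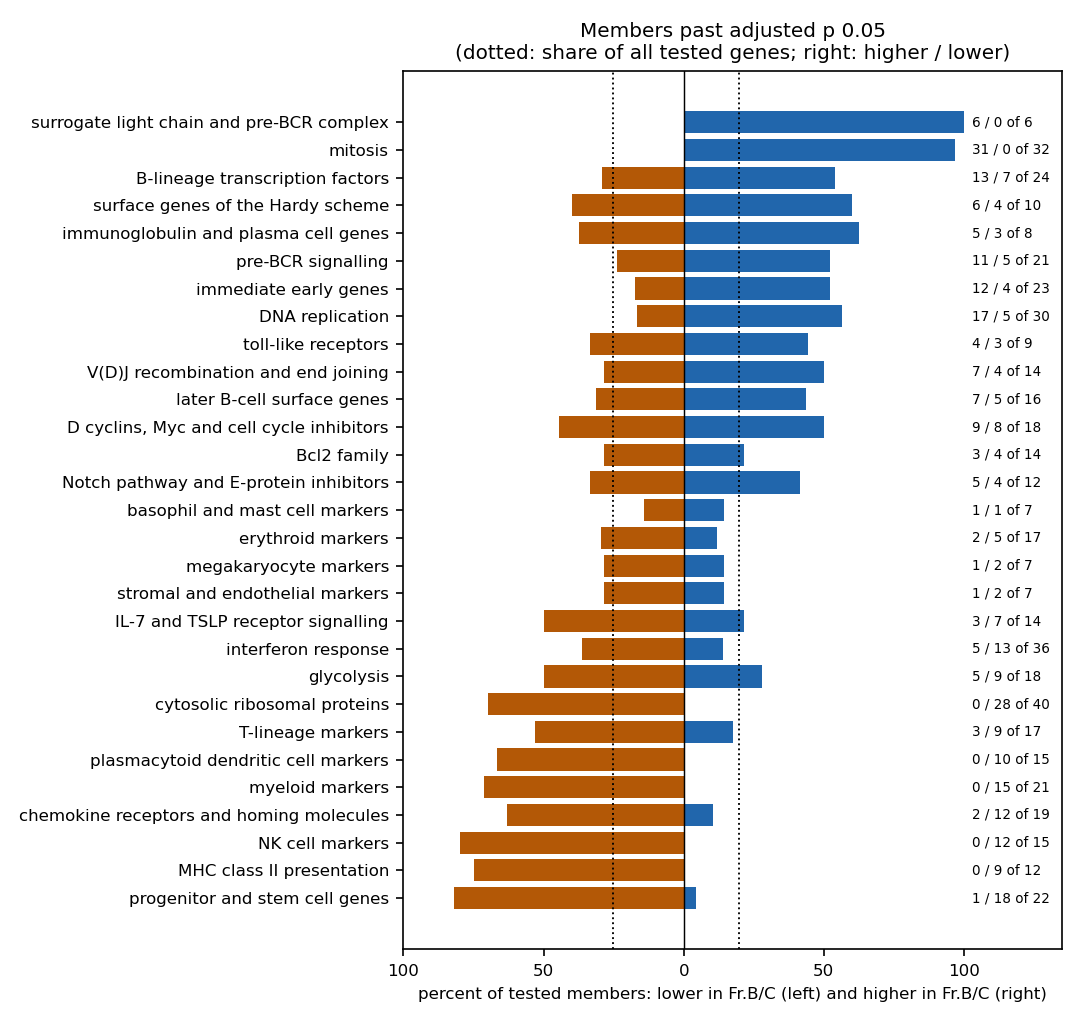
Share of tested members of each gene list that rose (right) or fell (left) at an adjusted p under 0.05, with the counts at the right edge and dotted lines at the share of all tested transcripts (19.7% higher, 25.2% lower). Pre-BCR and mitotic genes lie at the top with no member that fell, and progenitor, MHC class II, NK, myeloid and plasmacytoid dendritic cell lists lie at the bottom.

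Progenitor genes fell. Of 22 stem and progenitor genes tested, 18 fell (25.2% of all transcripts did), 13 of them by at least 2-fold, and 1 rose. The median was -1.11, and 16 to 18 fell in every alternative. Cd34, a sialomucin of early progenitors, read 6.62, 6.41, 6.77 and 5.95 in Fr.A and 1.29, 1.54, 1.54 and 1.79 in Fr.B/C. Its change of -4.90 ± 0.18 (adjusted p = 1.76e-06, limma) was the largest fall on the arrays. Flt3, the cytokine receptor of lymphoid-primed progenitors, read 3.76, 4.32, 3.54 and 3.05 against 0.72, 0.54, 0.89 and 0.68, a change of -2.96 ± 0.20. Cd27, a TNF receptor family member, fell by 2.65, Cebpb, a myeloid factor, fell by 2.31, and Tal1, a stem cell factor, fell by 1.71. The second Cebpb probe gave -0.59.

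Hmga2, a chromatin protein of fetal and stem cells that is a let-7 target, read 5.32, 5.78, 5.56 and 5.32 in adult Fr.A and 1.42, 1.63, 1.26 and 1.35 in Fr.B/C. Every Fr.A value lay far above the reference, and the change was -4.08 ± 0.08 (adjusted p = 3.39e-07, limma), or -1.16 on the second probe. Arid3a, named in the series title, read 0.26, 0.39, 0.04 and 0.17 in Fr.A and -1.04, -0.91, -0.82 and -0.90 in Fr.B/C. It fell by 1.14 ± 0.09 without overlap. Lin28b, also named there, had probes but none met the filter in bone marrow.

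The 12 largest falls held further genes of cell adhesion and effector cells. S100a4, a calcium-binding protein, read -1.51 to -1.17 in Fr.A and -5.98 to -5.5 in Fr.B/C, a change of -4.40 ± 0.07. Itgb7, an integrin subunit of gut homing, fell by 3.93 ± 0.08, from 1.5 to 1.55 in Fr.A to -2.58 to -2.24 in Fr.B/C. Lat2, a linker in immune receptor signalling, fell by 4.20, and Emb, the cell surface protein embigin, by 3.85, each less on a second probe (-1.43 and -1.68). Dok2, an adaptor that restrains kinases, fell by 3.67, Depp1, a target of FoxO factors, by 3.67, and Slc35d3, a sugar transporter family member, fell by 3.93.

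Chemokine receptors and homing molecules fell in 12 of 19 tested and rose in 2, with a median of -0.77. Over all transcripts 25.2% fell and 19.7% rose. Of the 17 above background in both fractions, 11 fell. Ccr9, which directs cells to thymus and gut, read 0.03, -0.40, -0.43 and -0.92 in Fr.A and -2.31, -2.65, -2.57 and -2.58 in Fr.B/C. The change was -2.10 ± 0.11 (adjusted p = 9.6e-06, limma). Ccr6 fell by 2.63 ± 0.21, and Cxcr5, the receptor that leads mature B cells into follicles, by 0.95 ± 0.08. Cxcr5 did not pass with scaling between arrays (-0.7, adjusted p = 0.0641). Among the Toll-like receptors, where 4 of 9 tested genes rose and 3 fell, Tlr7, a sensor of RNA, fell by 2.13 and Tlr4, the sensor of lipopolysaccharide, rose by 1.63 ± 0.07.

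Antigen presentation genes fell. Of 12 genes of MHC class II presentation tested, 9 fell, 6 of them by at least 2-fold, and none rose. Over all transcripts 25.2% fell and 19.7% rose. The median of the list was -0.96. Cd74, the invariant chain, read 3.06, 2.91, 3.19 and 2.67 in Fr.A and 1.33, 1.28, 1.24 and 1.07 in Fr.B/C, a fall of 1.73 ± 0.08 (adjusted p = 4.39e-06, limma). H2-DMa, which loads peptides, fell by 1.79 ± 0.09, and H2-Eb1, a class II beta chain, by 1.73 ± 0.07. MHC class II is made by B cells, dendritic cells and myeloid cells alike, and which cells the fall came from was not tested.

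Markers of other blood lineages were lower in Fr.B/C in several lists. NK cell markers fell in 12 of 15 tested, with none higher (25.2% and 19.7% over all transcripts). The mean log2 ratio over the list was 0.92 to 1.29 on the Fr.A arrays and -0.27 to -0.13 on the Fr.B/C arrays. A gene was tested when it stood above background on 3 arrays of either fraction, and 4 of the 15 met this in Fr.A alone, so that a fall was built into their selection. They include 3 of the 12 that fell, Eomes, Ncr1 and Xcl1, named after their values were seen. Of the 11 above background in both fractions, 9 fell. Ctsw, a protease of cytotoxic cells, fell by 3.80 ± 0.10. Nkg7, a granule protein, read 2.16, 2.08, 2.28 and 2.41 in Fr.A and -0.39, -0.46, -0.53 and -0.25 in Fr.B/C, a change of -2.64 ± 0.07 (adjusted p = 7.54e-07, limma). Klrd1, the CD94 receptor, fell by 2.57 ± 0.13 and Il2rb, the interleukin 2 and 15 receptor beta chain, by 2.41 ± 0.12.

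Plasmacytoid dendritic cell markers fell in 10 of 15 tested, with none higher (25.2% and 19.7% over all transcripts). Their mean log2 ratio was 0.84 to 1.00 in Fr.A and -0.16 to -0.02 in Fr.B/C. Of the 13 above background in both fractions, 8 fell. Siglech, a receptor largely restricted to these cells, was well above background on all 4 Fr.A arrays and on no Fr.B/C array, so it was at least 1.40-fold higher in Fr.A (adjusted p = 0.00136, limma). It was kept through Fr.A alone, so a fall was built into its selection and its p-value is no independent evidence. Runx2 fell by 2.94 ± 0.16 and Cox6a2, a mitochondrial subunit abundant in these cells, fell by 4.88 ± 0.12. Cox6a2 read 1.93, 1.65, 2.33 and 2.09 against -3.19, -3.50, -2.39 and -2.42. Irf8, a factor shared by dendritic cells, monocytes and B cells, read 1.51 to 1.66 in Fr.A and 0.92 to 1.17 in Fr.B/C, a change of -0.51 ± 0.07 that did not pass with scaling between arrays (-0.36, adjusted p = 0.13). Spib, which both B cells and these dendritic cells use, rose as given above.

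Myeloid markers fell in 15 of 21 tested, with none higher (25.2% and 19.7% over all transcripts) and a median of -0.53. This count is less firm, since 5 fell with scaling between arrays and 6 without the replicate block. Among the 15, 1 was saturated on at least 1 array (-0.4). Their mean log2 ratio was 2.57 to 3.36 in Fr.A and 1.88 to 2.49 in Fr.B/C, where all 21 were still above background. Fcer1g, the common Fc receptor gamma chain, read 1.58, 1.84, 1.88 and 1.64 in Fr.A and -0.50, -1.07, -0.19 and -0.26 in Fr.B/C, a change of -2.23 ± 0.16. Ccr2, a receptor of monocytes, fell by 1.91 ± 0.18 and Fcgr3, a low-affinity Fc receptor, by 1.26 ± 0.10. Fcgr3 gave -0.51 on its second probe and did not pass with scaling between arrays (-0.97, adjusted p = 0.0565).

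T-lineage markers gave 9 lower and 3 higher (1 with the sets averaged) of 17 tested, beside 25.2% and 19.7% over all transcripts. Their mean log2 ratios were -2.08 to -1.87 in Fr.A and -2.53 to -2.38 in Fr.B/C. Of the 14 above background in both fractions, 7 were lower and 3 higher. Tcf7, the T-lineage factor TCF-1, fell by 2.20 and Cd6 by 2.16, with -0.29 and -0.30 on their second probes. Zap70, a kinase of T-cell receptor signalling that B-lineage cells can also use, rose by 1.3 ± 0.06. Erythroid markers gave 5 lower and 2 higher of 17, near the share over all transcripts. Hbb-bt, a beta globin, read 5.76 to 6.71 in Fr.A and 5.18 to 5.86 in Fr.B/C, far above the reference in both. Its ranges overlapped, and the fall of 0.63 ± 0.09 turned to 0.08 with scaling between arrays (adjusted p = 0.937, limma). Car2, carbonic anhydrase, rose by 1.79 ± 0.07 and Nfe2, an erythroid and megakaryocytic factor, fell by 1.24 but did not pass with scaling between arrays (-0.9, 0.0926).

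Basophil and mast cell markers gave 1 higher and 1 lower of 7 tested, which were Prss34 (1.39 ± 0.11) and Cpa3 (-2.15 ± 0.11). Megakaryocyte markers gave 1 higher and 2 lower of 7, or 1 and 1 of the 4 above background in both fractions, and stromal and endothelial markers 1 higher and 2 lower of 7. In lists this small, none of these counts stands clear of the shares over all transcripts (19.7% higher, 25.2% lower). How far cells of other blood lineages contribute to the falls given in the paragraphs above was not tested.

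**Figure D4:**
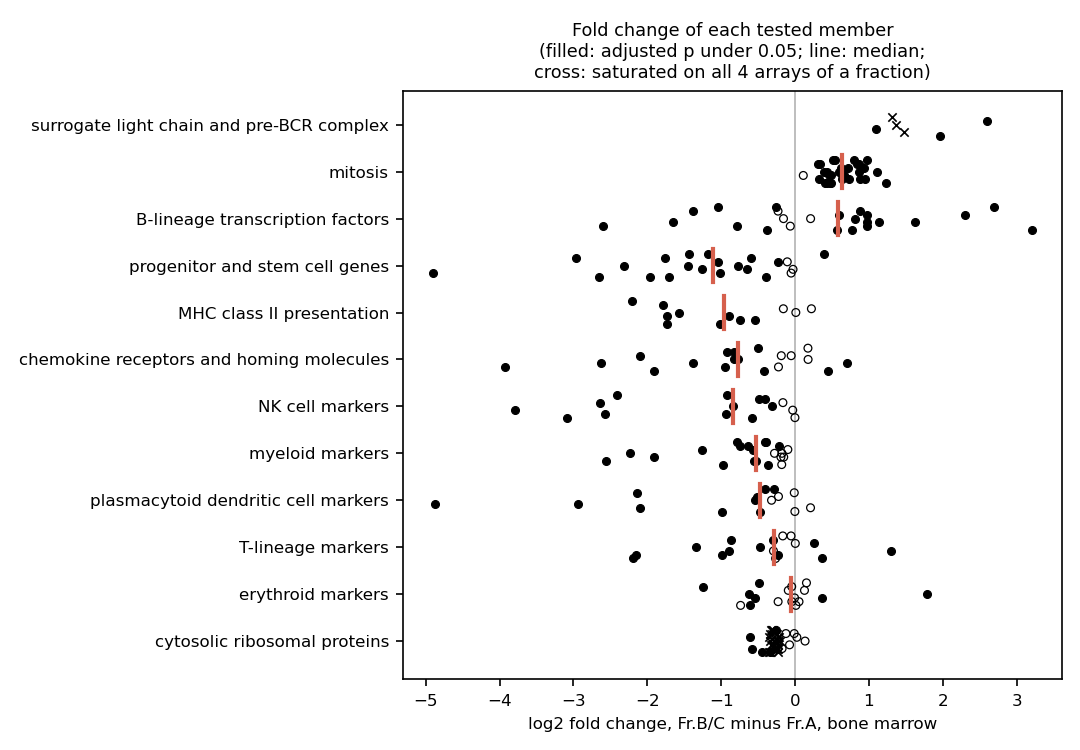
Log2 fold change of Fr.B/C minus Fr.A for each tested member of 12 gene lists, as a circle filled where the adjusted p was under 0.05, or as a cross for a probe saturated on all 4 arrays of at least 1 fraction. A line marks the median of lists in which crosses are the minority. The 3 pre-BCR genes without saturation lie between 1.1 and 2.59 and the progenitor list reaches down to -4.90 with a median of -1.11, while 26 of the 40 ribosomal protein genes are crosses, whose position is no exact fold change.

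Genes of ribosomes, glycolysis, the interferon response and the immediate early response were counted in the same way. The shares over all transcripts were 19.7% higher and 25.2% lower. Cytosolic ribosomal protein genes passed as lower in 28 of 40 tested, with none higher, but 30 of the 40 probes were saturated on at least 1 array and 21 on all 8, so their fitted changes are no exact values. Of the 10 probes saturated on no array 1 fell, Rpl14 with -0.61 ± 0.12. Over the 40 genes, 2 fell with the sets averaged or with median centring. Glycolytic genes gave 5 higher and 9 lower of 18 (1 and 5 with the sets averaged), and Ldhb, a lactate dehydrogenase subunit, fell by 1.48 ± 0.09. Interferon response genes gave 5 higher and 13 lower of 36 (2 higher with the sets averaged). In either direction 50% of this list passed, near the 44.9% of all transcripts. Gbp3, a guanylate-binding protein, fell by 0.95 ± 0.09. Immediate early genes, which also respond to handling during a sort, gave 12 higher and 4 lower of 23 (2 lower with the sets averaged). Egr1 rose by 1.80 ± 0.07 and Jun by 0.97 ± 0.07.

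The same step in fetal liver was set beside that of bone marrow with a test of the difference, in a limma model over all 16 arrays with the sort as a block within tissue. It passed for 3571 of 21668 transcripts (16.5%), 1968 of them with a higher fold change in fetal liver. Without replicate 3 the count was 1539, and without replicate 4 it was 1680. The scan sessions of the tissues were not shared, so the tissue and the session cannot be told apart here. Of the 110 genes named here, 67 passed. Most of them were picked by their change in marrow, which by itself favours a smaller step in fetal liver among them. The directions were shared for many of the largest changes. Enpep rose by 3.76 in fetal liver, Lef1 by 2.68 and Bst1 by 2.33, and Cd34 changed by -4.53, Flt3 by -3.23 and Ly6d by -3.36. For Lef1, Bst1, Cd34, Flt3 and Ly6d the difference between tissues did not pass.

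Other members of the marrow step differed in fetal liver. Grb7 rose by 1.95 there, 2.59 less than in marrow (difference -2.59 ± 0.22, adjusted p = 2.11e-05, limma). Fcmr did not pass in fetal liver (0.04, adjusted p = 0.742), a difference of -1.91 ± 0.11. It read 0.01 to 0.17 on the fetal liver arrays. Genes were kept by their signal in marrow alone, and whether Fcmr stood above background in fetal liver was not tested. Rasgrp3 and Hes1 rose in marrow, while in fetal liver Rasgrp3 changed by -0.72 and Hes1 gave -0.47, which did not pass (adjusted p = 0.112). The fetal liver pairs of Hes1 were split. It went from 0.82 to 1.07 and from 1.19 to 1.37 on arrays 1 and 2. On arrays 3 and 4 it went from 1.25 to -0.09 and from 1.32 to 0.37. Cxcr5 fell in marrow and rose by 0.62 in fetal liver, a difference of 1.57 ± 0.13 (adjusted p = 2.03e-05). Cd6 showed no passing change in fetal liver (-0.01, adjusted p = 0.946). Socs2 rose further in fetal liver, by 2.52, and Runx2 fell further, with -5.17 there (difference -2.24 ± 0.20). Hmga2 changed by -2.29 in fetal liver and Cox6a2 by -2.58, both smaller falls than in marrow, with differences of 1.78 ± 0.17 and 2.30 ± 0.16. Arid3a changed by -0.99 in fetal liver, and its difference of 0.15 ± 0.18 did not pass.

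**Figure D5:**
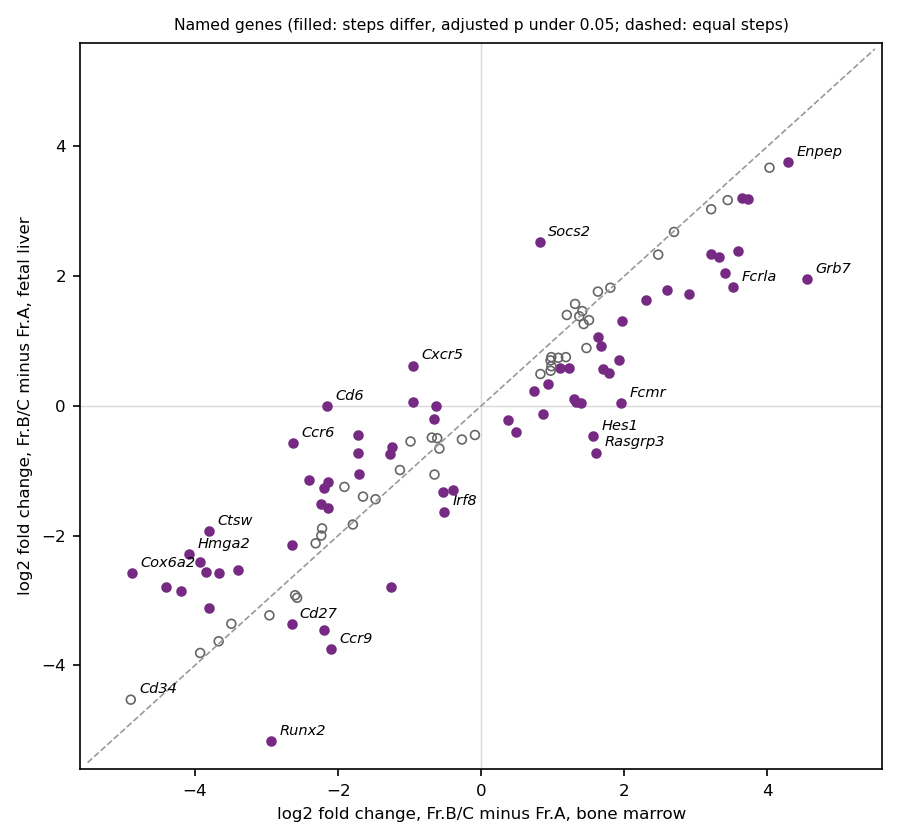
Log2 fold change of Fr.B/C minus Fr.A in bone marrow (horizontal) and in fetal liver (vertical) for the 110 named genes, filled where the difference between tissues passed an adjusted p of 0.05, with a dashed line where both steps are equal. Cd34 lies near the line, while Grb7, Rasgrp3 and Fcmr lie below it and Cxcr5, Cd6 and Ccr6 above it.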

How the data were processed

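Per the file headers, the deposited scanner files (Feature Extraction 8.5.1.1) hold mean, background and processed signals of each spot as intensity. The authors also deposited a table of log2 ratios, which run as sample over reference and correlated with the values used here at r = 0.93 to 0.951. The sources used here give no method for it beyond the name limma, per the submitters' processing notes. The sample was in Cy5 on arrays 1 and 3 and in Cy3 on arrays 2 and 4, per the labels.

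Background was corrected with normexp (offset 50, which compresses changes of dim genes) and arrays were normalized by loess in limma 3.58.1 (R 4.3.3). Control and outlier spots were left out. Of 41174 probes, 26878 remained after requiring, in either marrow fraction, 3 of 4 arrays with a sample signal well above background, and 3 complete pairs. Names came from RefSeq accessions for 22214 probes and from other fields for the rest of 27231. Each gene was represented by its brightest kept probe, 14082 of 21675 with a symbol.

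The paired limma fit used the array number as a block (3 residual degrees of freedom, 7.48 with the empirical Bayes prior). The labels say that each sort gave a sample of either fraction. Deviations from the group means correlated at 0.522 to 0.567 for the same number and at -0.518 to 0.19 otherwise. Each number is also its own combination of dye and set of arrays, so these correlations cannot show that a pair shares a sort. In data simulated for this comparison (21675 genes, 200 of them changed), 90% of changes of 1 and 33% of changes of 0.5 (log2) were recovered, with 3.91% false calls. In the real data 9726 passed, which makes the adjustment less strict, so these shares do not carry over directly.

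Named genes were the 12 highest and 12 lowest changes with a plain symbol, the same direction in every pair, no overlap and a signal above background throughout the higher fraction, up to 4 members per list of smallest adjusted p, and a set of B-lineage genes. The text names a part of them, and some genes are not reported here. The comparison, the members and the 29 lists were chosen with earlier results of these data known. Saturated spots were kept, and a gene saturated or below background throughout a fraction has a lower bound. Alternatives are given in the closing section.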

Additional observations from a re-analysis of the deposited data

Results flagged for a closer look

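The step was tested for a difference between fetal liver and bone marrow, and 67 of the 110 named genes passed (adjusted p under 0.05, limma, 16 arrays). Over all transcripts 16.5% passed. Most of the named genes were picked by their change in marrow, and this selection by itself favours a smaller step in fetal liver among them. Values in parentheses are the log2 fold change in fetal liver minus that in bone marrow. No scan session held arrays of both tissues, and its part in these differences cannot be told apart from that of the tissue.

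Genes that rose in marrow and had a lower fold change in fetal liver were led by Grb7 (-2.59), Rasgrp3 (-2.33), Hes1 (-2.03), Fcmr (-1.91), Fcrla (-1.69), Lgr5 (-1.38), Prss34 (-1.34), Car2 (-1.28), Pik3ap1 (-1.27) and Mzb1 (-1.23). Further genes of this kind were Ttll11 (-1.20), Zap70 (-1.19), Id3 (-1.18), Lig4 (-1.15), Sgk1 (-1.03), Xrcc6 (-1), Il2rg (-0.88), Spib (-0.87), Vpreb2 (-0.81) and Prkcb (-0.76). Smaller differences in that direction were found for Irf4 (-0.68), Cd79a (-0.67), Ccnb2 (-0.65), Spn (-0.60), Bub1b (-0.60), Pou2af1 (-0.57), Slamf7 (-0.55), Enpep (-0.54), Ighm (-0.52) and Hmgb1 (-0.50). The last was Smtnl2 (-0.45). Genes were kept by their signal in marrow alone, and detection in fetal liver was not tested. On the fetal liver arrays Fcmr read 0.01 to 0.17 and Prss34 -0.05 to 0.12. Hes1 and Car2 rose in fetal liver on arrays 1 and 2 and fell on arrays 3 and 4.

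Genes that fell in marrow and had a higher fold change in fetal liver were led by Cox6a2 (2.30), Cd6 (2.15), Ccr6 (2.06), Ctsw (1.86), Hmga2 (1.78), S100a4 (1.61), Cxcr5 (1.57), Itgb7 (1.51), Lat2 (1.34) and Emb (1.29). They were followed by Cd74 (1.27), Il2rb (1.26), Dok2 (1.08), H2-Eb1 (1.01), Gbp3 (1.01), Cpa3 (0.98), Tcf7 (0.94), Id2 (0.87), Sdc1 (0.73) and Bcl2 (0.68). The smallest of these differences belonged to Tal1 (0.66), Hbb-bt (0.63), Nfe2 (0.62), Tlr7 (0.56), Notch1 (0.52), Nkg7 (0.49) and Bid (0.47). A larger fall in fetal liver than in marrow was found for Runx2 (-2.24), Ccr9 (-1.65), Fcgr3 (-1.55), Ly86 (-1.25), Irf8 (-1.12), Ptprc (-0.91), Siglech (-0.79) and Cd27 (-0.71). Socs2 (1.70) rose in marrow and had a higher fold change in fetal liver.

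Single arrays stood apart from the others of their fraction in 3 of 219 groups of 4 values, by a rule that chance meets in about 1 of 20. Ttll11 read -2.27 on Fr.A array 2 against -1.99 to -1.94 on the others. Tyms read 0.73 on Fr.B/C array 4 against 0.18 to 0.19. Irf8 read 1.66 on Fr.A array 1 against 1.51 to 1.53.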

How the results depend on the processing

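All 21 alternatives planned for the marrow step and the 8 for the difference between tissues were run. The count of 9726 transcripts came to 6418 (2798 higher, 3620 lower) with scaling between arrays, 6017 (2508 and 3509) with the sets of arrays averaged, 4791 (1969 and 2822) on the Cy5 arrays alone and 5020 (2000 and 3020) on the Cy3 arrays alone. The last 3 rest on fewer values per fraction. Without the replicate block, 6729 passed on 8 arrays, 2827 of them higher, and 7144 on 16. Scan session as a block gave 7871, while within a session at most 1 pair was complete, so no test is possible there. Leaving out 1 replicate gave 7880 to 8499 transcripts.

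The tissue difference, 3571 transcripts, came to 2169 with the scanner's processed signals, 1431 with median centring and 1609 without the replicate block, and to 1539 to 3250 without 1 replicate. Of 109 named genes that passed, 96 kept direction and call in every alternative that could be computed for them and 13 lost the call in at least 1. Scaling between arrays cost the calls of Rag1, Dntt, Il7r, Ptprc, Spn, Kit, Cxcr5, Irf8, Fcgr3, Nfe2 and Hbb-bt. The others lost in some setting were Il2rg and Siglech. Under scaling Rag2 and Hbb-bt reversed, to 0.09 and 0.08. Of 58 list counts, 28 stayed within 1.5 times throughout, and the cause of the other changes was not tested. Medians of the Bcl2 family, erythroid, basophil and megakaryocyte lists changed sign in some settings. Among list members, saturation limits Vpreb1, Vpreb3, Cd79b, Dntt, 30 of the 40 ribosomal protein genes, 1 surface gene and 1 myeloid marker. In the simulated data, where only 200 genes were changed, changes of 0.5 were often missed.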
